A study of Gallus gallus with 4 samples.

Results

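The fatty acid-binding protein (FABP) family was read in chicken liver through the probes whose RefSeq accession belongs to FABP1, FABP2, FABP3, FABP4, FABP5, FABP6 or FABP7. These 7 genes, of 5382 genes named on the array, held 13 probes of 43603. FABP1, FABP2, FABP5 and FABP6 had 1 probe each, and FABP3, FABP4 and FABP7 had 3 each. The members were set by their gene symbols and not by their values.

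Liver of coloured broilers aged 35 days, from a population selected in opposite directions for residual feed intake, was profiled on 4 one-colour Agilent arrays, 2 per group. Group 1 is labelled high and group 2 low, both for feed efficiency and for residual feed intake, the excess of feed eaten over the amount predicted from growth and body size. Birds with a high residual intake are usually the inefficient ones, so these labels contradict each other, and the text speaks of group 1 and group 2. All birds were caged singly with free access to feed and water through the 35-day trial, on starter feed to week 4 and on finisher feed after it. The design text speaks of 4 to 5 birds per group and organ, pooled, with each pool split over the group's 2 arrays. In group 2 the values go against a single split pool, since the W-linked gene HINTW stood at 81.66% of the group 1 mean on replicate 2 and at 0.1998% on replicate 1 (median of 8 probes). The p-values rest on the spread of these arrays alone, which may be technical in group 1 and may hold differences between birds in group 2. The labels name females for both group 1 arrays and for group 2 replicate 1, and 1 male and 1 female for group 2 replicate 2.

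Fatty acid-binding proteins are small cytosolic proteins that fold into a barrel around a long-chain fatty acid or another lipid, and carry it between membranes, enzymes and nuclear receptors. The members differ in the tissue that makes most of them and in part in the ligand they hold, and several of their genes are targets of the PPAR receptors that sense fatty acids. Liver is known for a high content of FABP1, and the gut epithelium for FABP2 and FABP6. On the reference assembly GRCg7b, FABP5, FABP9 and FABP4 lie next to each other with no other protein-coding gene between them.

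Values below are levels of one probe on the log2 scale, as processed intensity relative to the array's 75th percentile, so that 0 means the signal of that percentile. Levels of different probes cannot be read as relative amounts, since probes differ in their response. Where the levels of a list are summed below, bright probes weigh most and the sum is only a description. Probes well above background made up 78.2% and 80.2% of spots in group 1 and 74.98% and 72.3% in group 2. Above background stands for well above background throughout. Over 33869 probes, the SD of the difference between arrays of one group was 0.42 log2 units in group 1 and 0.79 in group 2, against 0.98 to 1.09 for pairs of arrays from different groups. The array labelled group 2 replicate 1 went against its label. HINTW, which only hens carry, was 500.4-fold below the group 1 mean there, and its 387 Z-linked probes had a median of 0.52 log2 units above the other arrays. Several of the results are therefore also given without that array. Of 18 hepatocyte markers with a probe, 16 were well above background on all 4 arrays, among them albumin (ALB), while CPS1 and RBP4 did not pass that filter in either group.

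The question was which members of the family differed between the livers of the 2 groups. FABP2, the intestinal member, and FABP4, the adipocyte member, were higher in group 1, and FABP3, the heart and muscle member, was lower. FABP1, FABP5, FABP6 and FABP7 did not pass the test. By probe, 4 of the 13 were called higher and 3 lower at an adjusted p under 0.05 (limma with Benjamini-Hochberg over 33866 probes), against 7.39% and 3.82% of all tested probes. By gene, taking the brightest probe, 2 of 7 were called higher and 1 lower, against 5.75% and 3.92% of named genes. In either direction these were 7 of 13 probes against 11.2%, and 3 of 7 genes against 9.67%. The groups did not overlap on 10 of the 13 probes and for 5 of the 7 genes, against 67.2% of all tested probes and 68% of named genes, so lack of overlap was common on these arrays. Without group 2 replicate 1 the probes called numbered 4 higher and 4 lower, FABP5 being the added one. With either group 1 array left out, limma called 0 FABP probes, and 4 higher and 3 lower had an unadjusted p under 0.05.

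The probe of FABP2 and 2 of the 3 probes of FABP4 passed the filter on dim signals through group 1 alone, so these had to differ and their counts are descriptions. Over all named genes 280 were higher and 191 lower, and the share of calls that were higher was 59.45%, or 39.8% when arrays were centred on their medians. Over all genes the median difference was 0.14 log2 units with the scaling used and -0.08 with median centring. Relative to that median, which a change of array centre moves along with every probe, the FABP3 probes lay at -1.36 to -1.56 and the brightest FABP4 probe at 1.49. After quantile normalization these were -1.31 to -1.56 and 1.24. For 2 arrays in each group the smallest p of an exact permutation test (two-sided, 1 probe) is 0.333. In pooled bulk tissue, fewer cells of a type cannot be told apart from less RNA per cell.

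**Figure D1:**
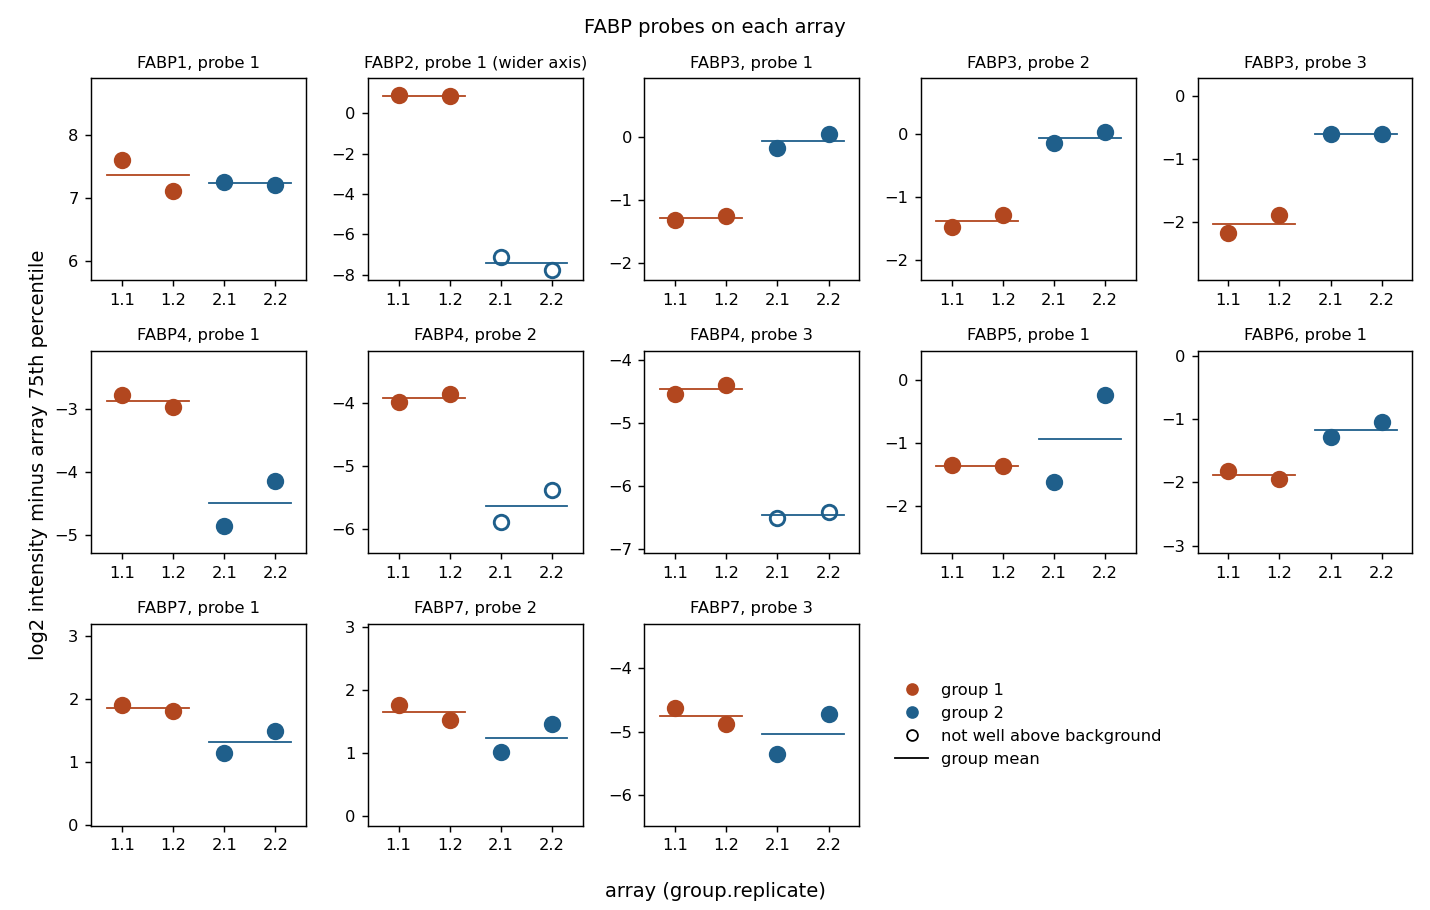
Level of each of the 13 FABP probes on each array, as log2 intensity relative to the 75th percentile of its array (y axis), for group 1 and group 2 replicates 1 and 2 (x axis). Lines are group means and open circles are signals not well above background. Heights can be compared within a panel only, and the FABP2 panel has a wider axis than the others. FABP2 stood near 0.86 in group 1 and was not well above background in group 2.

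FABP1, the liver member, was near the same level on all arrays. Its probe read 7.60 and 7.10 in group 1 and 7.25 and 7.20 in group 2. The group 2 values lay between those of group 1, so the groups overlapped. The log2 difference was 0.13 ± 0.25 (SE, group 1 minus group 2 here and below, n = 2 arrays in each, limma adjusted p = 0.740). Its 95% interval ran from 0.69-fold to 1.74-fold, so differences within that range were not excluded by these arrays. The sign of this small difference turned with median scaling (-0.09), with normexp background correction (-0.0085) and without group 1 replicate 1 (-0.12). The raw intensity of this probe was 178269 to 199527 units on the 4 arrays, under the scanner's saturation value of 777973 units.

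LBFABP, the liver basic fatty acid-binding protein of birds, which binds bile acids, is a relative of the family outside the numbered members. Its probe read 7.26 and 6.83 in group 1 and 7.05 and 6.69 in group 2, with overlap between the groups. The log2 difference was 0.18 ± 0.27 (limma adjusted p = 0.665).

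FABP2, which binds fatty acids inside the absorptive cells of the intestine, showed the largest difference of the family. Its probe read 0.90 and 0.83 in group 1, and -7.10 and -7.75 in group 2. In raw units these were 1820.2 and 2582 against 8.52 and 5.94. Both group 1 arrays were well above background and neither group 2 array was, and the gap between the groups was 7.93 log2 units. The level in group 1 was at least 95.7-fold higher than the bound that background set in group 2 (limma adjusted p = 0.00692). The measured log2 difference of 8.29 ± 0.29 exceeded that of 99.98% of tested probes in size, and since group 2 has only a bound it is no estimate of the fold. The difference was 8.61 without group 2 replicate 1 (adjusted p = 0.0154) and 7.97 without replicate 2 (0.0076). Without group 1 replicate 1 or 2 the value was 8.26 or 8.32 but passed no longer (adjusted p = 0.166 and 0.175). After normexp background correction and quantile normalization the difference was 4.99 (adjusted p = 0.00442). FABP2 had no second probe on the array.

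Several genes best known from the lining of the gut stood higher in group 1 beside FABP2. Of 15 gut epithelium markers tested, 7 were called higher and 0 lower, namely CDX2, VIL1, CDH17, SLC5A1, MEP1A, GUCA2B and OLFM4. The earlier findings on these data already pointed to gut genes, so this list is not independent evidence. Over all named genes 5.75% were called higher. CDX2, CDH17 and OLFM4 passed the filter on dim signals through group 1 alone and so had to differ. MEP1A, not above background on group 2 replicate 1, also passed it through group 1 alone, which favoured a higher call. Where all 4 arrays had to be above background, 10 markers were left, 3 called higher and 1 lower, with a median of 0.31. The count was 4 higher and 0 lower with no filter, and 6 and 1 with median scaling and with normexp. Without group 2 replicate 1 the count was 9 higher and 0 lower, and without replicate 2 it was 8 and 2. With either group 1 array left out, limma called no gene of any list. CDX2, a transcription factor that sets intestinal identity, read -0.79 and -0.68 in group 1 and -8.07 and -7.21 in group 2, where it was not above background, and was at least 31.6-fold higher in group 1 (adjusted p = 0.0144). The arrays of group 1 stood far above those of group 2 for this gene. CDH17, an adhesion molecule of intestinal cells, was at least 5.41-fold higher (adjusted p = 0.0225).

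GUCA2B, the precursor of uroguanylin, was well above background on all 4 arrays, with 0.99 and 0.80 in group 1 and -2.94 and -3.96 in group 2. The 3 probes of GUCA2B were all called higher. SLC5A1, the glucose carrier of the brush border, differed by 2.66 ± 0.40 on the log2 scale (limma adjusted p = 0.0327). Other members of the list did not pass, among them MTTP, which loads fat onto lipoproteins in gut and liver (0.13 ± 0.23), and APOA4 (0.07 ± 0.23). Probes disagreed for some of the list. SLC15A1, the peptide carrier, was at 0.25 ± 0.47 on its brightest probe while its other probe was called higher at a measured 6.89, ANPEP had 2 of 6 probes called higher, and the second probe of MEP1A (1.035) was not called. SLC2A2, a glucose carrier of liver and gut, had the opposite sign, -2.10 ± 0.43 (adjusted p = 0.0507). In group 1 all 15 markers were well above background on both arrays, and in group 2 that held for 10. CDX2, CDH17, OLFM4 and GCG were not above background on either group 2 array. The summed linear level of the list, relative to the 75th percentile, was 370 to 462 in group 1 and 364 to 376 in group 2. APOA4 and ANPEP, both of which liver makes in quantity, carried most of it, and without them the other 13 markers summed to 19.2 to 19.8 in group 1 and 11.7 to 17.8 in group 2. The median log2 difference was 0.88, or 0.54 with the dim genes at their bounds, against 0.14 over all genes. The part of these markers in the FABP2 result was not tested.

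**Figure D2:**
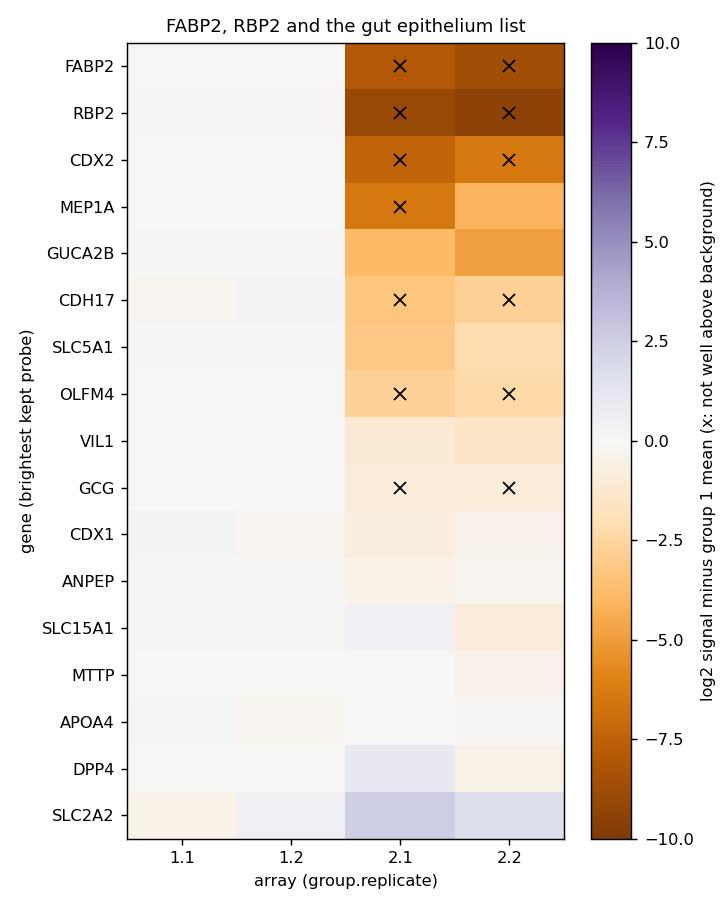
Signal of FABP2, RBP2 and the 15 gut epithelium markers (y axis) on each array (x axis), coloured by log2 signal minus the group 1 mean of the same gene. Crosses mark signals not well above background, which carry only a bound. FABP2, RBP2 and CDX2 lay lowest in group 2, while MTTP and APOA4 stayed near the group 1 mean and SLC2A2 lay above it.

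FABP3, which carries fatty acids to the mitochondria of heart and muscle, was lower in group 1 on each of its 3 probes. The brightest probe read -1.32 and -1.26 in group 1 and -0.18 and 0.05 in group 2. The second read -1.49 and -1.29 against -0.15 and 0.02, and the third -2.18 and -1.89 against -0.61 and -0.61. All 3 probes were well above background on all 4 arrays, the groups did not overlap, and the gap between them was 1.08 to 1.28 log2 units. The log2 differences were -1.22 ± 0.21, -1.33 ± 0.21 and -1.43 ± 0.21, with limma adjusted p = 0.0381, 0.0350 and 0.0328. Group 2 levels were thus 2.34-fold, 2.51-fold and 2.69-fold those of group 1.

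Arrays of one group differed by at most 0.29 log2 units on the FABP3 probes, less than the gap between groups. Without group 2 replicate 1 the brightest probe differed by -1.34 (adjusted p = 0.0245), and without replicate 2 by -1.11 (0.0297). The call was lost under 4 of 14 alternatives, among them without group 1 replicate 1 (-1.19, adjusted p = 0.331), without group 1 replicate 2 (-1.26, 0.241) and with no filter on dim probes (-1.22, 0.0633), and over the alternatives the adjusted p of that probe ranged from 0.0245 to 0.331.

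Heart and skeletal muscle markers were read beside FABP3. Of 8 tested, TNNC1, the calcium-binding troponin of heart and slow muscle, was lower in group 1 (-1.76 ± 0.21, adjusted p = 0.0264). MYL1, MYL3 and MYL4, which are myosin light chains, were higher. MYL4 differed by 1.697 ± 0.24, while MYL1 and MYL3 exceeded the group 2 bound by at least 1.45-fold and 2.44-fold. MYL1 and MYL3 passed the filter through group 1 alone, and with normexp they differed by 0.25 (adjusted p = 0.286) and 0.65 (0.0688). The list counts were 1 higher and 1 lower with normexp, with no filter and where all 4 arrays had to be above background, and 2 and 1 with quantile normalization. Of the 14 markers with a probe, 6 failed the filter on dim signals, among them myoglobin (MB), TNNT2 and ACTC1. The summed level of the list was 5.84 to 6.20 in group 1 and 10.5 to 11.47 in group 2. TNNC1 alone carried this difference, and without it the other 7 summed to 3.37 to 3.45 in group 1 and 1.88 to 2.42 in group 2. The part of these markers in the FABP3 result was not tested.

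FABP4, the fatty acid carrier of adipocytes and macrophages, was higher in group 1 on each of its 3 probes. The brightest read -2.77 and -2.97 in group 1 and -4.86 and -4.14 in group 2, with all 4 arrays well above background. The second read -3.99 and -3.86 against -5.89 and -5.37, and the third -4.54 and -4.40 against -6.52 and -6.41, with neither group 2 array above background. The groups did not overlap on any of these probes, and the arrays of group 2 lay 0.72 log2 units apart on the brightest.

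That probe of FABP4 differed by 1.62 ± 0.31 on the log2 scale, 3.08-fold (limma adjusted p = 0.0457). The second exceeded its group 2 bound by at least 3.27-fold and the third by at least 2.37-fold (adjusted p = 0.0333 and 0.0219). Without group 2 replicate 1 the brightest probe of FABP4 differed by 1.26 (adjusted p = 0.0293), and without replicate 2 by 1.98 (0.0172). Its call was lost under 6 of 14 alternatives, among them median scaling (1.40, adjusted p = 0.0582), quantile normalization (1.302, 0.0658) no filter (1.62, 0.0695), and group 1 replicate 1 (0.331) or 2 (0.232) left out, over an adjusted p range of 0.0172 to 0.331. With normexp and quantile normalization the 3 probes differed by 0.76, 0.62 and 0.37, and only the brightest of them was called (adjusted p = 0.0441).

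Adipose, macrophage and endothelial markers were read beside FABP4. None of 9 adipose markers passed the test in either direction (limma, 1 above 0 and 0 below it at an unadjusted p under 0.05). With an intensity trend 1 was called higher, and the calls of this list also changed with a group 2 array left out. Of the 9, 8 lay above 0, against 58.5% of all named genes. The list median was 0.49, or 0.62 without group 2 replicate 1 and 0.36 without replicate 2. ADIPOQ, the adipocyte hormone adiponectin, differed by 0.59 ± 0.24 (adjusted p = 0.159) and PLIN1, which coats fat droplets, by 0.33 ± 0.39 (0.571). PPARG, the receptor that drives FABP4 in fat cells, differed by 0.90 ± 0.41 (adjusted p = 0.197). The adipose list summed to 116 to 131 in group 1 and to 44.4 to 175.6 in group 2. THRSP, a gene of fat synthesis that liver also makes, carried most of it, and without it the other 8 summed to 24.1 to 26.6 and 20.4 to 25.7, again with overlap.

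Of 13 macrophage markers 2 were called higher, against 5.75% of named genes. They were the antigen presentation gene CD74 (1.38 ± 0.27) and the leukocyte surface gene PTPRC (1.06 ± 0.21). The list median was 0.28. Neither call held with median scaling (list 0 higher and 1 lower), quantile normalization (0 and 0) or no filter (0 and 0), and without group 2 replicate 1 the count was 6 and 0. The second probe of each gene was not called. The macrophage list summed to 355 to 410 in group 1 and 224 to 310.2 in group 2. Without CD74 the other 12 summed to 201.1 to 233.6 and 171.2 to 234.2, with overlap. CD14, a marker of this list, was not above background in either group. All 9 endothelial markers tested lay above 0, against 58.5% of all named genes, with a median of 0.69. FLT1 and FLT4 passed the filter on dim signals through group 1 alone, which favoured a value above 0. The median was 0.53 where all 4 arrays had to be above background. By brightest probe 1 was called higher, the transcription factor SOX17 (1.502 ± 0.26). The count was 0 with quantile normalization, no filter or a replicate block and 2 with normexp. The endothelial median was 0.93 without group 2 replicate 1 and 0.56 without replicate 2. Of the other genes, KDR had 2 of 4 probes called higher and FLT1 1 of 2. The endothelial list summed to 5.17 to 6.33 in group 1 and 3.16 to 3.68 in group 2. CAV1 and ERG were not above background in either group. The part of any of these lists in the FABP4 result was not tested.

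FABP5, a member made in epidermis and many other tissues, differed more within group 2 than between the groups. Its probe read -1.35 and -1.36 in group 1, and -1.61 and -0.24 in group 2. Group 1 lay between the group 2 arrays, which stood 1.38 log2 units apart, the widest gap within a group for any FABP probe. The log2 difference was -0.43 ± 0.49 (limma adjusted p = 0.560). Without group 2 replicate 1 it was -1.12 and called lower (adjusted p = 0.0295), and without replicate 2 it was 0.26 and not called (0.322), over an adjusted p range of 0.0295 to 0.798. The result for FABP5 thus rested on which group 2 array was read.

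FABP6, the ileal member that binds bile acids, read -1.81 and -1.94 in group 1 and -1.28 and -1.04 in group 2. Group 2 lay above group 1 on both arrays, with a gap of 0.53 log2 units. The log2 difference of -0.71 ± 0.21 did not pass (limma adjusted p = 0.0928), and its 95% interval ran from -1.27 to -0.15. It stayed below 0 under all 14 alternatives, from -0.93 to -0.60, and was called in none (adjusted p 0.0511 to 0.437).

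Among 5 genes of bile acid carriers and feedback, 2 were called lower in group 1 and 0 higher, against 3.92% and 5.75% of named genes. The lower count was 1 with no filter, 3 with normexp and 4 with an intensity trend. CYP7A1, which catalyses the first and limiting step from cholesterol to bile acids, read -0.70 and -0.59 in group 1 and 2.97 and 2.58 in group 2 (difference -3.42 ± 0.23, adjusted p = 0.0181), and its 3 probes were all called lower. NR0B2, a receptor that represses CYP7A1 in mammals, differed by -1.56 ± 0.21 (adjusted p = 0.0298). SLC51A, a chain of the carrier that exports bile acids from cells (-1.12 ± 0.29), NR1H4, the bile acid receptor that drives FABP6 in mammals (-0.87 ± 0.22), and CYP8B1 (-0.92 ± 0.40) did not pass. All 5 genes lay below 0 by their brightest probe, with a median of -1.12, though the probes of NR1H4 ranged from -0.87 to 0.18. Of all named genes 58.5% lay above 0. FGF19, the gut hormone of this feedback, did not rise above background in either group.

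FABP7, the member of radial glia in the developing brain, was well above background on all arrays with all 3 probes. The brightest read 1.90 and 1.80 in group 1 and 1.15 and 1.49 in group 2, and the second 1.77 and 1.54 against 1.02 and 1.47. The third, a far dimmer probe, read -4.62 and -4.88 against -5.36 and -4.72. Group 1 lay above group 2 on the first and second, by a gap of 0.31 and 0.06 log2 units, and overlapped it on the third. The log2 differences were 0.53 ± 0.23, 0.41 ± 0.26 and 0.29 ± 0.30 (limma adjusted p = 0.173, 0.309 and 0.527). The third turned to -0.15 after quantile normalization, and none of the 3 was called under any alternative. In all 3 the lower group 2 array was replicate 1.

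Glial and neural markers were read beside FABP7. Of 10 tested, PMP22, a myelin protein also made outside nerve, was called higher in group 1 (2.08 ± 0.25, adjusted p = 0.0256), though its second probe (1.299) was not. The other 9 did not pass by their brightest probe, though the second probe of PAX3 (2.03) was called higher. The list median was 0.49, and of all named genes 5.75% were called higher. The summed level was 10.8 to 11.6 in group 1 and 7.78 to 7.96 in group 2, and SOX2 was not above background in either group.

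**Figure D3:**
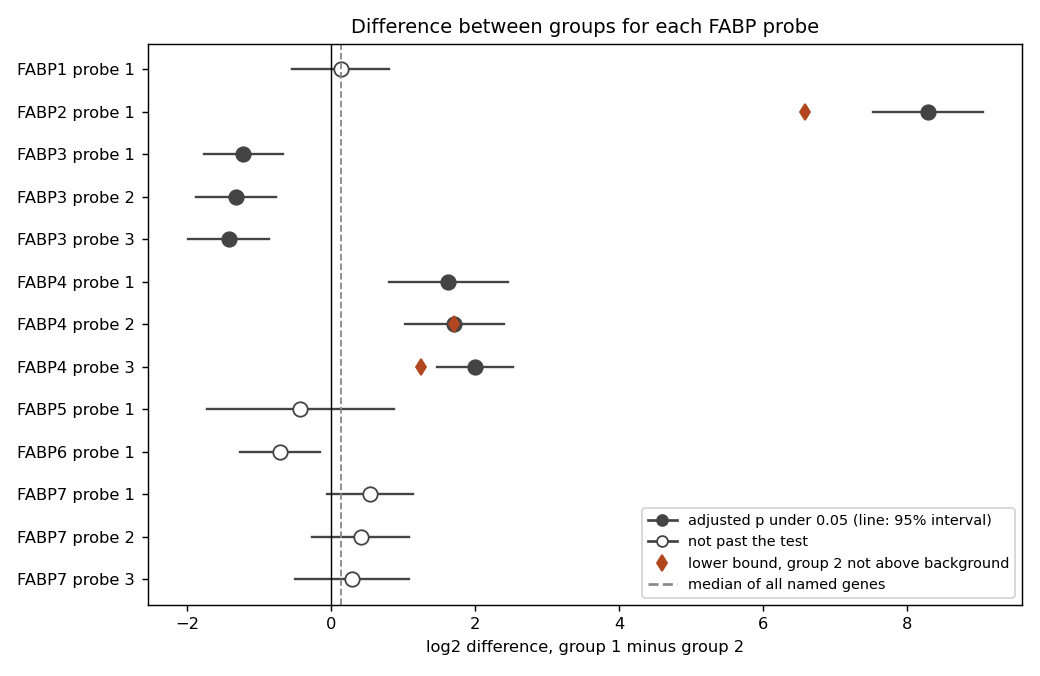
Log2 difference between group 1 and group 2 (x axis) for each FABP probe (y axis), with its 95% interval from limma. Filled points passed the test, diamonds are lower bounds where group 2 was not well above background, and the dashed line is the median of all named genes, 0.14. The 3 probes of FABP3 lay on the lower side and those of FABP2 and FABP4 on the higher side.

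**Figure D4:**
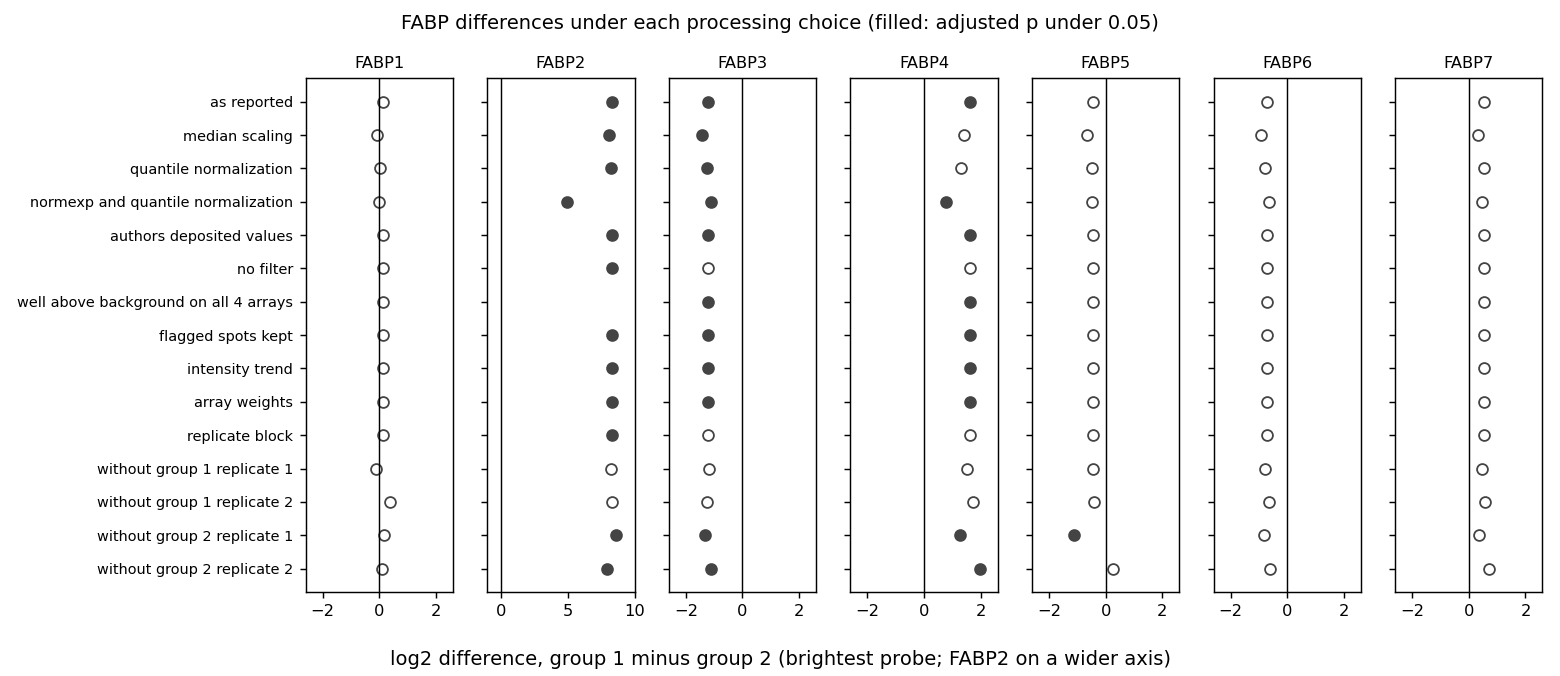
Log2 difference of each FABP gene's brightest probe (x axis) under each way of processing (y axis), filled where the adjusted p was under 0.05. FABP2 has a wider axis and no value where all 4 arrays had to be above background. FABP2, FABP3, FABP4, FABP6 and FABP7 kept their sign in every row shown, FABP1 crossed 0, and FABP5 moved from -1.12 to 0.26 with the group 2 array left out.

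The other small lipid-binding proteins of the same fold include the carriers of retinol and retinoic acid. RBP2, which binds retinol in the absorptive cells of the gut, read 2.03 and 1.82 in group 1 and -7.04 and -7.45 in group 2. Like FABP2, it was above background in group 1 alone, and it was at least 199.5-fold higher there (adjusted p = 0.00618). CRABP1, which binds retinoic acid, was at least 1.83-fold higher but did not pass (adjusted p = 0.0512). RBP5 differed by 0.51 ± 0.22 and did not pass (adjusted p = 0.174). RBP2 and CRABP1 passed the filter through group 1 alone and so had to differ. Of these 4 genes, with LBFABP, the median was 1.27, or 0.69 with the dim genes at their bounds, and for the pair above background on all 4 arrays, LBFABP and RBP5, it was 0.34 with 0 called (limma). FABP9, which lies between FABP5 and FABP4, was not well above background on any array.

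Genes that bring fatty acids into the cell and activate them gave 0 calls among 8 tested (limma, 0 above 0 and 1 below it at an unadjusted p under 0.05), with a median of -0.02. CD36, a membrane receptor for fatty acids, differed by 0.50 ± 0.28 (adjusted p = 0.266), and DBI, which binds acyl-CoA, by 0.03 ± 0.20 (0.926). GOT2, a mitochondrial transaminase also described as a fatty acid-binding protein of the plasma membrane, differed by -0.59 ± 0.27 (0.194). The smallest adjusted p among the brightest probes was that of ACBD3, an acyl-CoA binding domain protein (-0.65 ± 0.22, 0.119), while a second, dimmer probe of ACBD5, a protein of the same kind, was called lower at -1.93.

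None of 14 nuclear receptors and factors that act on FABP genes passed either (limma, 2 above 0 and 2 below it at an unadjusted p under 0.05). The list median was 0.21, or 0.17 without group 2 replicate 1 and 0.27 without replicate 2. Where all 4 arrays had to be above background, 1 was called higher and 1 lower. With an intensity trend the count was 0 higher and 2 lower, and with median scaling or normexp 0 and 1. The calls of this list also changed with a group 2 array left out. PPARA, the fatty acid receptor that drives FABP1 in mammalian liver, differed by 0.33 ± 0.19 (adjusted p = 0.285) on its brightest probe, with its 3 probes ranging from -0.58 to 0.33, and HNF4A by -0.34 ± 0.40 (0.568). CEBPB (-1.03 ± 0.23, 0.0553) and RXRG (1.00 ± 0.22, 0.0554) came nearest. Of 16 PPAR target genes outside the family 1 was called higher and 2 lower (4 and 3 with either group 2 array left out), and the median was 0.39. CPT1A, which brings fatty acids into mitochondria, was higher (2.18 ± 0.29, adjusted p = 0.0292), and SCD, which makes monounsaturated fatty acids (-3.03 ± 0.52, 0.0392), and the thioesterase ACOT9 (-3.84 ± 0.50, 0.0281) were lower. The probes of ACOT9 disagreed, the second being called higher at 1.51, and the second probe of SCD (-2.16) was not called. HADHA was not called by its brightest probe (1.02, limma adjusted p = 0.0599), but 1 of its 3 probes was called higher.

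Markers of other cells were read in the same way, beside 5.75% called higher and 3.92% lower over all named genes. Among erythroid markers, RHAG and TFRC passed the filter on dim signals through group 1 alone, which favoured a higher value there. Of 9 erythroid markers 3 were called higher, RHAG among them, and 0 lower, with a median of 2.11. That count was 1 with median scaling or quantile normalization, 0 with no filter, and 7 and 6 without group 2 replicate 1 and 2. Where all 4 arrays had to be above background, 2 erythroid markers were called higher, with a median of 2.11. The erythroid list summed to 302 to 366 in group 1 and 40.2 to 139 in group 2. Of 11 T and B lymphocyte markers 1 was called higher, or 0 with median scaling and no filter and 5 with normexp. At an unadjusted p under 0.05 (limma), 8 of the 11 lay above 0 and 0 below it. CD8A was not called by its brightest probe (0.60), but 1 of its 2 probes was called higher, at 2.18. The lymphocyte median was 1.05, or 0.78 without group 2 replicate 1, with sums of 42.07 to 42.1 against 19.9 to 27.5. Of 10 pancreas acinar markers 2 were called higher and 0 lower. The higher count was 0 with quantile normalization, normexp and no filter. With median scaling, normexp, an intensity trend or a replicate block 1 was called lower, as where all 4 arrays had to be above background. AMY2A lay at -1.68 ± 0.36 (limma adjusted p = 0.0536), its 3 probes ranging from -1.68 to 1.68. The list summed to 1.703 to 2.24 against 1.27 to 1.58. Without CELA1 the sums were 0.905 to 1.344 and 0.954 to 1.023, with overlap. The pancreas median was 0.94, or 0.77 without group 2 replicate 1. CTRL and PRSS2 were not called by their brightest probe, but 2 of 3 and 1 of 2 of their probes were called higher. Of 6 bile duct markers 1 was called higher and 1 lower, and neither with no filter. None of 16 hepatocyte markers was called by its brightest probe (limma, 0 above 0 and 1 below it at an unadjusted p under 0.05), with a median of 0.05. Over all their probes, 4 of 7 of TF, down to -2.36, and 1 of 2 of FGG (-1.20) were called lower. The part of these cells in the FABP results was not tested.

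**Figure D5:**
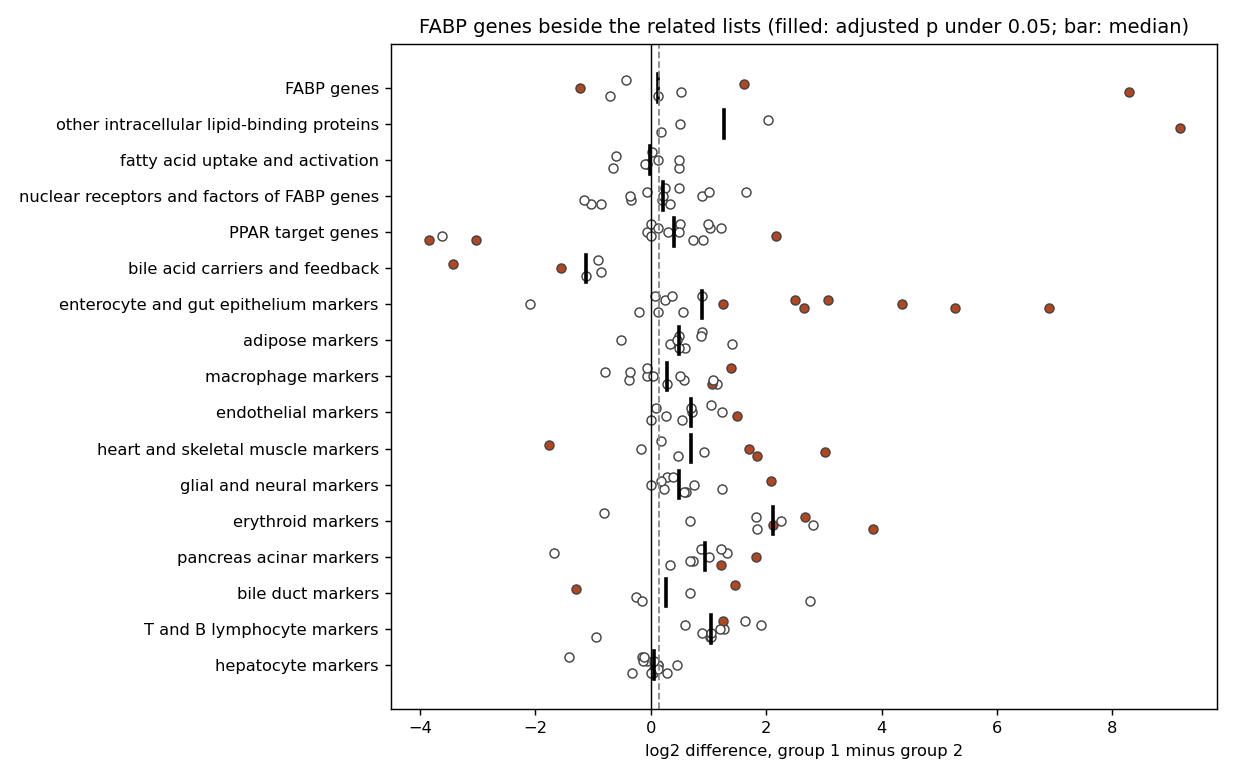
Log2 difference between the groups (x axis) for the brightest kept probe of each gene, by list (y axis), filled where the adjusted p was under 0.05. Bars are medians and the dashed line is the median of all named genes, 0.14. Genes not above background in group 2 are drawn at their measured value, which is no estimate of the fold. The 7 FABP genes spread from -1.22 to 8.29.

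Profiles over the 4 arrays were set against those of 4526 other named genes above background on all arrays, by the root mean square distance of log2 values centred per gene. For FABP3 the nearest were TCP11L1 (0.037 log2 units), SEMA4D (0.044) and PHKB (0.049), and for FABP4 they were CHPT1 (0.027), FGFR2 (0.029) and WNT10A (0.036). FABP1 lay nearest to AMBP (0.030), a plasma protein precursor made in liver, TAF12 (0.030) and ASMT (0.038). The nearest to FABP6 were SEC24B (0.023), DESI2 (0.030) and RFTN1 (0.033), and to FABP7 they were ORMDL2 (0.019), TFDP2 (0.020) and CTTNBP2 (0.023). FABP5 had the most distant neighbours, RIMBP2 (0.067), GLRX (0.067) and KIAA1524 (0.073). The distances are a description of these 4 arrays.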

How the data were processed

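The scanner files hold the intensity of each spot, background-subtracted by Agilent Feature Extraction 11.5.1.1 per the file headers, and the array design was drawn on galGal3. The series table holds log2 values that the authors scaled and centred on each probe's median, as found by setting them against the scanner values. Log2 intensities were scaled to each array's 75th percentile, taken over the 43803 non-control spots, after outlier spots (8 to 25 per array) were set to missing. No spot was saturated. A probe was kept if both arrays of either group had it well above background (33869), and 33866 were tested with limma 3.58.1 in R 4.3.3 (lmFit, eBayes, 2 residual and 2.60 prior degrees of freedom). The number of arrays limits the precision. All 4 arrays were on 1 slide, so position and group cannot be told apart. Probes were named through RefSeq accessions on GRCg7b (11935 probes). A gene stands by its brightest kept probe. Where both arrays of the dimmer group were not well above background, the fold is given as at least the brighter group's mean over the mean of, per array, the lowest signal well above background or the probe's own if higher.

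The members, lists and tests were chosen with earlier results of these data known. Named were all FABP probes, the measured relatives of the fold (1 withheld item is not reported here and was left out of its list), up to 5 called genes with the largest difference per list, a set of partners, and the 3 nearest profiles. Genes named beyond that rule were chosen after their values were seen. The method was tested on simulated data. The effect of the alternatives (scaling, normexp, the authors' table, the filter, flagged spots, an intensity trend, array weights, a replicate block, each array left out, and the mean of a gene's probes) is given at the end. Normexp was run on median spot signals, an alternative chosen after seeing the data.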

Additional observations from a re-analysis of the deposited data

How the results depend on the processing

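With the authors' table, flagged spots kept, array weights and an intensity trend, the FABP calls were those reported, 4 probes higher and 3 lower. FABP probes called higher numbered 2 with quantile normalization, with normexp and with no filter, and 1 where all 4 arrays had to be above background, which removes 3 probes. FABP genes called higher fell to 1 with median scaling, quantile normalization, no filter and the all-array filter. With no filter 0 FABP probes and 0 FABP genes were called lower (limma, where 4 probes on the lower side had an unadjusted p under 0.05). Leaving out 1 array gave 0 to 4 FABP probes higher, 0 to 4 lower, 0 to 2 FABP genes higher, 0 to 2 lower, 0 to 720 genes higher and 0 to 429 lower. The lowest of each came with either group 1 array left out, where limma called nothing (4 FABP probes above 0 and 3 below it had an unadjusted p under 0.05). The residual spread then comes from the group 2 pair alone.

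Among named genes 438 higher and 321 lower were called with the trend, 102 and 54 with no filter, and 306 lower with median scaling and 342 with normexp. With the replicate number as a block 3 FABP probes were called higher and 0 lower (3 below 0 had an unadjusted p under 0.05), 1 FABP gene higher and 0 lower, and 110 genes lower. The FABP3 probes then had an adjusted p of 0.0629, 0.0544 and 0.0510 and the brightest FABP4 probe 0.0567. Deviations of same-numbered arrays correlated at 0.03 across probes, and with 2 numbers per group this does not settle a pairing.

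With the mean of a gene's probes 2 FABP genes were called higher and 1 lower, as with the brightest probe, and the PPAR target list had 1 higher and 0 lower, the gut list 8 and 0, the endothelial list 3 and 0, the pancreas list 4 and 0, the lymphocyte list 2 and 0, the macrophage list 1 and 0, the receptor list 0 and 1 and the hepatocyte list 0 and 1.

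Signs turned for small differences that did not pass. With median scaling these were FABP1 (-0.0899), DBI (-0.19), LBFABP (-0.0431) and MTTP (-0.0868). With normexp they were FABP1 (-0.00854) and the dim FABP7 probe (-0.0383), and with quantile normalization that FABP7 probe (-0.153). With 1 array left out, differences ranged from -0.121 to 0.379 for FABP1, from -1.119 to 0.257 for FABP5, from -0.0379 to 0.609 for that FABP7 probe, from -0.107 to 0.681 for ALB, from -0.033 to 0.0911 for DBI, from -0.846 to 0.166 for HNF4A, from -0.0435 to 0.394 for LBFABP, from -0.0539 to 0.317 for MTTP and from -0.163 to 0.831 for PLIN1. The cause was not tested. The planned normexp correction of mean spot signals was not run, and median spot signals took its place, chosen after seeing the data. Where a signal is not well above background, only a bound can be read.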

Other observations

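EXFABP, the extracellular fatty acid-binding protein of chickens, is a secreted lipocalin and no member of the cytosolic family, and was looked at after its values were seen. Its brighter probe read 2.43 and 2.48 in group 1, and 2.62 and 5.34 in group 2. The second probe read 0.78 and 0.88, and 1.04 and 3.69. On both probes group 2 replicate 2 stood apart, by 2.72 and 2.65 log2 units from the other group 2 array, and the difference between groups did not pass (-1.52 ± 0.92 and -1.53 ± 0.89, SE, n = 2 arrays per group, limma adjusted p = 0.295 and 0.282). FABP5 was also higher on that array than on the other, by 1.38 log2 units.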
